A study of Mus musculus with 39 samples.

Results

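The amino acid and peptide transporters described here are the 54 gene symbols of the deposited count table that belong to the solute carrier families Slc1a, Slc3a, Slc6a, Slc7a, Slc15a, Slc36a, Slc38a and Slc43a, together with Slc16a10, out of 16358 genes in all. The rule that chose them used gene names and no measured value, but it was written with earlier results of these data known. The tissue was duodenum of wild-type male C57BL/6 mice aged 8 weeks, and all 39 libraries came from mice with a cannula in the lateral brain ventricle and 2 h of food deprivation. The groups were 6 Leptin-antibiotic libraries (3 µg leptin into the ventricle, with ampicillin at 1 g/L and neomycin at 0.5 g/L in the drinking water for 48 h), 6 Saline-antibiotic libraries (saline after the same antibiotics), 13 Leptin-water libraries (the same leptin dose, plain water) and 14 Saline-water libraries (saline, plain water). Tissue was taken 2 h after the injection. Library names of the labels start with MT or M. There were 6 libraries per group in set MT, for all 4 groups, and set M held 7 Leptin-water and 8 Saline-water libraries, so antibiotic was compared within set MT only. Separate animals are not stated for the libraries, which the labels only number, so p-values measure the spread between these samples.

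Absorption of dietary protein by the enterocyte runs across 2 membranes. At the apical brush border, peptidases cut peptides, PepT1 takes up di- and tripeptides with protons, and sodium-coupled or exchanging carriers take up free amino acids. At the basolateral membrane, exchangers built from the heavy subunit 4F2hc and a light subunit, together with facilitated-diffusion carriers, pass amino acids on to the blood. Other members of the same families serve housekeeping uptake, lysosomes, neurotransmitter clearance or other solutes such as creatine. Following that knowledge the 54 members were put in classes: 9 apical, 7 basolateral, 15 general carriers of other cells or tissues, 8 lysosomal or intracellular, 10 neurotransmitter and related carriers, 2 carriers of other solutes (the creatine carrier Slc6a8 and the nucleobase carrier Slc43a3), and 3 without a class (Slc6a19os, an antisense transcript, Slc7a6os, a protein-coding neighbour of Slc7a6, and Slc7a15, a light subunit family member). Of 68 symbols on the class lists 51 were in the table, and the other 17, the apical carrier Slc6a14 among them, were not analysed here.

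Library totals were 30207536 to 67870777 counts (median 48282125). The members took 0.402% to 0.561% of a library's counts. Their share averaged 0.522% ± 0.036 in Leptin-antibiotic, 0.466% ± 0.055 in Saline-antibiotic, 0.450% ± 0.028 in Leptin-water and 0.440% ± 0.018 in Saline-water libraries of set MT (SD, n = 6 each), and 0.462% ± 0.031 in Leptin-water (n = 7) and 0.457% ± 0.026 in Saline-water libraries of set M (n = 8). All 54 members passed the filter on low counts in every fit, and Slc38a3 was the 1 member with a count of 0 in some library. The mature enterocyte markers were abundant throughout, and 6 libraries carried exocrine pancreas genes at a mean over 4 log2 CPM, where CPM are counts scaled to library size by TMM (1 Leptin-antibiotic, 3 Saline-antibiotic and 2 Leptin-water libraries).

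Most of the abundant members were apical or basolateral enterocyte carriers. Levels between genes are given as RPKM, here CPM divided by the kilobases of annotated exon, averaged over the 39 libraries. Slc6a8, the creatine carrier, stood first at 144 ± 23.4 RPKM (SD, n = 39), followed by Slc6a19 at 111 ± 19.3 RPKM, which encodes B0AT1, the main apical carrier of neutral amino acids. Slc15a1, which encodes PepT1, had 62.2 ± 13.2 RPKM. Next stood the imino acid carrier Slc6a20a (55.7 ± 10.5), the cystine and cationic amino acid exchanger pair of light subunit Slc7a9 (49.9 ± 5.20) and heavy subunit Slc3a1 (47.7 ± 8.95), the basolateral branched-chain and phenylalanine carrier Slc43a2 (46.5 ± 7.80) and the basolateral heavy subunit Slc3a2 (46.4 ± 8.34 RPKM). Between Slc6a19 and Slc15a1 the SDs do not overlap. They overlap between Slc6a8 and Slc6a19, and between all neighbours from Slc15a1 down to Slc7a8 (36.8 ± 10.9 RPKM). All genes were measured in the same libraries, so this overlap does not decide those orders. The order within single libraries was not tested.

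The 9 apical members held 44.9% of the RPKM summed over all 54 members and the 7 basolateral members 23.6%. The general class held 3.91%, the intracellular class 3.45% and the neurotransmitter class 2.12%. In all, 18 members had a mean over 10 RPKM, 22 lay between 1 and 10, and 14 were under 1. Slc6a4, the serotonin carrier, was the most abundant of its class at 10.5 RPKM, and the cystine-glutamate exchanger Slc7a11 was the lowest member at 0.127 RPKM. These levels rest on exon lengths of the GENCODE vM21 annotation, which may not be the one the authors counted with. Slc6a20a and Slc6a20b are near copies 2204 bases apart and can share reads.

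**Figure D1:**
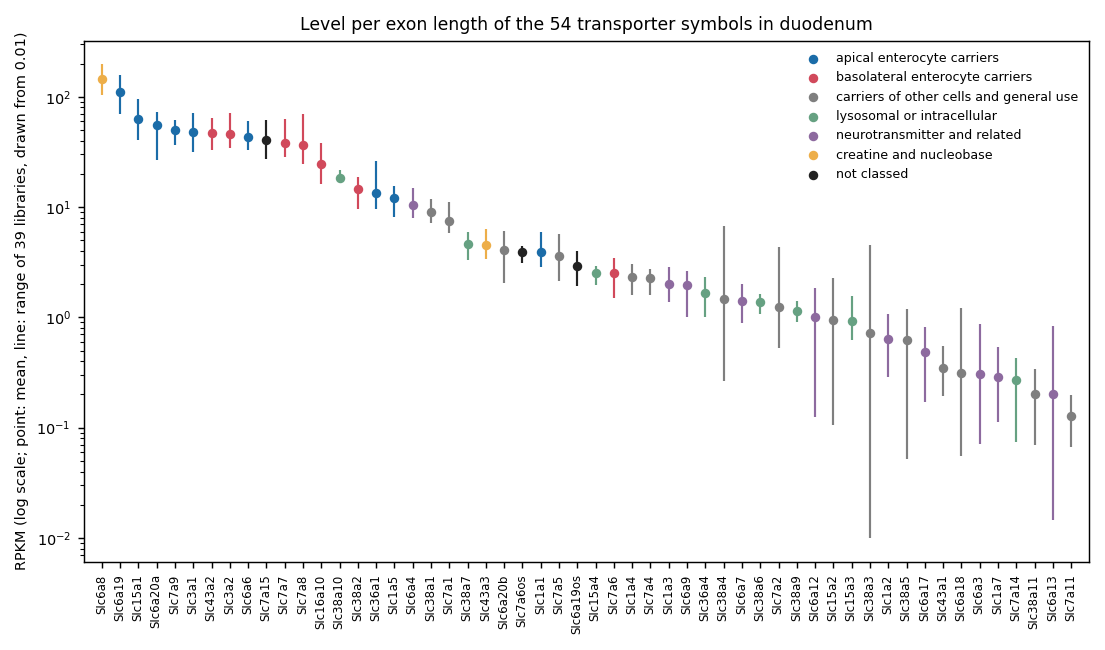
Mean level of each of the 54 members in RPKM on a log axis (points), with the range over the 39 libraries (lines, drawn from 0.01 where a library was lower) and colours for the carrier classes. Apical and basolateral carriers fill most of the left of the plot, with Slc6a19 at 111 RPKM, and the widest range is that of Slc38a3.

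Of the comparisons of leptin or antibiotic, the one with the most called members was between Leptin-antibiotic and Leptin-water libraries, that is, with antibiotics in leptin-injected mice. In all, 7 of the 54 members were called higher and 0 lower, against 2.28% of the 16340 genes tested, 1.85% higher and 0.422% lower (adjusted p under 0.05, edgeR quasi-likelihood F test). Basolateral carriers made up 5 of the 7: Slc7a8, Slc16a10, Slc7a7, Slc43a2 and Slc3a2. The taurine carrier Slc6a6 was the 1 of 9 apical members that was called, though 8 of the 9 had a positive log2 fold change. The dopamine carrier Slc6a3 was the remaining called member.

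Slc7a8 encodes LAT2, a light subunit that exchanges neutral amino acids at the basolateral membrane (GRCm38 chromosome 14, 54722209 to 54781946, minus strand). Its lowest, median and highest values were 226, 285 and 347 CPM in Leptin-antibiotic libraries, against 129.9, 148 and 214 CPM in Leptin-water libraries of set MT. The groups did not overlap. Without overlap 1.83% of all genes were higher and 0.912% lower. The log2 fold change was 0.80 (SE 0.13, adjusted p = 0.00336). Saline-antibiotic libraries had 168, 182.4 and 249 CPM, and Saline-water libraries of set MT had 123, 140.0 and 170.2 CPM.

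Slc16a10 encodes TAT1, which lets aromatic amino acids leave the cell by facilitated diffusion (chromosome 10, 40033532 to 40142258, minus strand). It had 200.3, 254 and 282 CPM (lowest, median, highest) in Leptin-antibiotic libraries, against 134, 163 and 214 CPM in Leptin-water libraries of set MT (log2 fold change 0.57, SE 0.12, adjusted p = 0.0143). The 2 ranges overlap, with 5 of 6 Leptin-antibiotic libraries above every Leptin-water library. Slc7a7, the y+LAT1 light subunit that exports cationic amino acids (chromosome 14, 54369442 to 54417780, minus strand), had 139, 159 and 210.0 CPM against 111, 130.2 and 148 CPM in the same groups (log2 fold change 0.37, SE 0.092, adjusted p = 0.0323), again with 5 of 6 above every Leptin-water library.

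Slc3a2, the heavy subunit that both Slc7a8 and Slc7a7 need at the membrane (chromosome 19, 8706882 to 8723369, minus strand), had 178, 207 and 254 CPM in Leptin-antibiotic libraries, against 139, 166 and 184 CPM in Leptin-water libraries of set MT. The log2 difference of 0.39 (SE 0.10) had an adjusted p of 0.0462, with 4 of 6 libraries above every Leptin-water library. Slc43a2, the LAT4 carrier (chromosome 11, 75531694 to 75577575, plus strand), had 451, 548 and 642 CPM against 333, 402 and 464 CPM (log2 fold change 0.44, SE 0.11, adjusted p = 0.0423), and 5 of 6 lay above every Leptin-water library. The other 2 basolateral members were not called: Slc38a2, a sodium-coupled carrier of neutral amino acids, averaged 123 ± 11.7 CPM in Leptin-antibiotic and 140.3 ± 17.3 CPM in Leptin-water libraries, and the y+LAT2 subunit Slc7a6 averaged 9.83 ± 1.71 and 12.3 ± 2.81 CPM (SD, n = 6 each). Their log2 fold changes were −0.18 and −0.31.

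**Figure D2:**
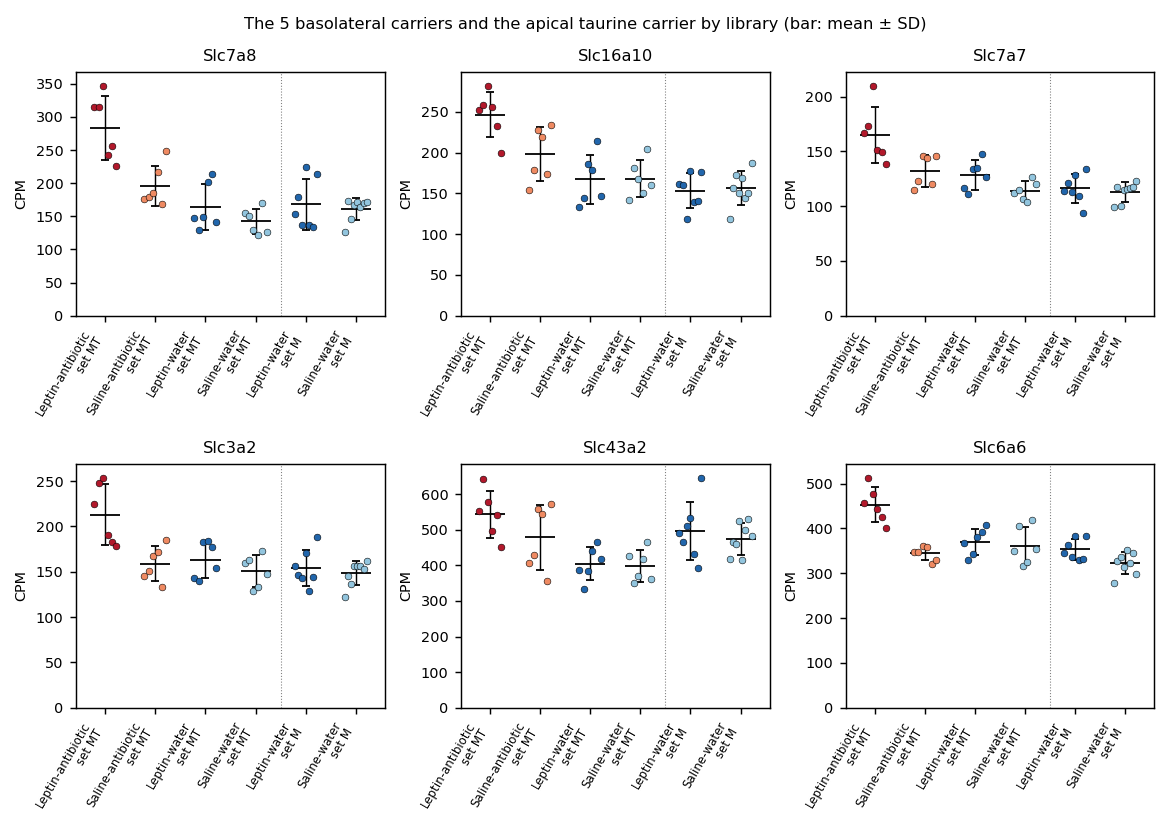
CPM in every library (points) for 5 basolateral carriers and Slc6a6, with the mean ± SD of each group (bars); set MT stands left of the dotted line and set M right of it. Leptin-antibiotic libraries have the highest group mean in all 6 panels, and for Slc7a8 they lie at 226 CPM and above.

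The RefSeq promoter table of GRCm38.p6 (250 bases before to 50 after each start) held 62 promoters of 42 members. These were searched on both strands for TGATGNAA, the core of the amino acid response element, which Atf4 binds when amino acids are short. It was present in 3.97% of all 32851 promoters and in 4 of the members' 62, belonging to Slc7a7, Slc7a11 and Slc1a4. The Slc7a7 promoters with a match, at chr14:54417653-54417952 and chr14:54417895-54418194, overlap and share a site, which is thus counted in both. The other Slc7a7 promoters had no match. A promoter of Slc7a7 with a pair of matches, in capitals, and the promoter of Slc7a8, with none, are shown because both basolateral light subunits rose. Both are on the minus strand, at chr14:54417895-54418194 and chr14:54781837-54782136, and are written 5′ to 3′.
Slc7a7: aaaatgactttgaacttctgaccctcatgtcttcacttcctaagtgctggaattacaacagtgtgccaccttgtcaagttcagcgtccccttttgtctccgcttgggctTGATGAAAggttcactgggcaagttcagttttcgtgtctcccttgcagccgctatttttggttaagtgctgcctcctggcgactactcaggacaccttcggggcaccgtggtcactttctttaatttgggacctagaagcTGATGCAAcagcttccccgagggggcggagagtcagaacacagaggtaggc
Slc7a8: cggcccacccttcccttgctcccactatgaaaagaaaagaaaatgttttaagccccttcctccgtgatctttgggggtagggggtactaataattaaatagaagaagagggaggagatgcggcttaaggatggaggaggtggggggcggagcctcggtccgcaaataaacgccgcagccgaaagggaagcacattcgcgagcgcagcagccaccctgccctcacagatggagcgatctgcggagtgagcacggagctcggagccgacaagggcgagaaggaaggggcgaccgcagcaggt
A match is a description of letters and not of a bound site. Among the members' promoters CAAAGTCCA, an HNF4 element, was found in that of Slc3a1 (0.475% of all promoters), and GCNATAAA, a CDX element, in 0 of 62 (2.66% of all). The motifs were matched with N as any base.

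Of the apical carriers, Slc6a6 encodes TauT, which takes up taurine (chromosome 6, 91684053 to 91759066, plus strand). It had 401, 449.8 and 513 CPM in Leptin-antibiotic libraries, against 329, 374 and 408 CPM in Leptin-water libraries of set MT (log2 fold change 0.30, SE 0.075, adjusted p = 0.0326), and the ranges overlap by 1 library. Slc6a19 averaged 679.8 ± 102 CPM in Leptin-antibiotic and 507 ± 73.1 CPM in Leptin-water libraries (log2 fold change 0.43, SE 0.13, adjusted p = 0.0636). Slc15a1 averaged 390.1 ± 71.9 and 299 ± 44.2 CPM in these groups (0.39, SE 0.16, adjusted p = 0.189), and Slc3a1 139 ± 22.3 and 111 ± 14.2 CPM (0.33, adjusted p = 0.149). These 3 did not pass the threshold. Of the 9 apical members 8 had a positive log2 fold change, with a median of 0.27, and of the 7 basolateral members 5 did, with a median of 0.39, while the median of all genes was −0.01.

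The remaining apical members were not called in this comparison. Slc6a20a averaged 249 ± 25.8 CPM in Leptin-antibiotic and 208 ± 29.9 CPM in Leptin-water libraries, Slc7a9 141 ± 14.6 and 134 ± 10.2 CPM, and the proton-coupled carrier Slc36a1 71.3 ± 7.90 and 64.4 ± 3.85 CPM (SD, n = 6 each). The glutamate carrier Slc1a1 averaged 34.4 ± 1.99 and 30.9 ± 2.24 CPM. Slc1a5, the glutamine exchanger ASCT2, was the 1 apical member with a negative log2 fold change, at 45.0 ± 5.50 CPM in Leptin-antibiotic and 48.7 ± 8.27 CPM in Leptin-water libraries. Slc6a3 was low throughout, at 1.26, 1.59 and 3.03 CPM in Leptin-antibiotic and 0.443, 0.700 and 1.23 CPM in Leptin-water libraries (log2 fold change 1.25, SE 0.28, adjusted p = 0.0209), without overlap between them.

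Markers of the enterocyte moved with these carriers. In the same comparison 15 of 15 mature enterocyte markers had a positive log2 fold change (median 0.35), and 2 of them were called. Their mean level was 10.79 ± 0.19 log2 CPM in Leptin-antibiotic, 10.42 ± 0.30 in Saline-antibiotic, 10.40 ± 0.18 in Leptin-water and 10.28 ± 0.19 in Saline-water libraries of set MT (SD, n = 6 each), and summed CPM ranged from 28804 to 41351 in Leptin-antibiotic and from 22470 to 31680 in Leptin-water libraries. With that mean level as a covariate 0 of the 54 members were called (edgeR), and the log2 fold change was 0.56 for Slc7a8, 0.27 for Slc16a10, 0.14 for Slc7a7, 0.22 for Slc43a2, 0.14 for Slc3a2 and 0.19 for Slc6a6. Smooth muscle markers had positive values for 11 of 12 genes (median 0.31, 2 called). In bulk tissue, more enterocytes and more RNA per enterocyte cannot be told apart.

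The count of 7 also depended on scaling and on single libraries. Upper quartile scaling left 3 of the 7, DESeq2 and limma voom each called 10 with all 7 among them, and 2 (Slc7a8 and Slc16a10) were left without the libraries high in pancreas genes. Leaving out 1 library at a time called 1 member without Leptin-water 8, 2 without each of Leptin-water 9, Leptin-water 11, Leptin-antibiotic 2 and Leptin-antibiotic 3, 3 without Saline-water 12, 4 without each of Leptin-water 10, Leptin-water 13, Leptin-antibiotic 1 and Saline-antibiotic 4, and up to 10 without Leptin-water 12. Slc7a8 was called in all 24 of these, with a highest adjusted p of 0.0174, and Slc16a10 in all but those without Leptin-water 8 and Leptin-water 9. The number of all genes called, 372 as reported, also changed with the setting, over the ranges given in the last section. A larger or smaller count of members under another setting is therefore not a result about the carriers alone.

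Between Leptin-antibiotic and Saline-antibiotic libraries, 1 of the 54 members was called. That was Slc6a6, with 401, 449.8 and 513 CPM in Leptin-antibiotic libraries, against 321, 348 and 361 CPM in Saline-antibiotic libraries. The ranges did not overlap, and 1.6% of all genes were higher in that way. The log2 fold change was 0.40 (SE 0.075, adjusted p = 0.016), and of the 16340 genes tested 0.514% were called, 0.459% higher and 0.0551% lower. On water the same gene averaged 369.7 ± 30.0 CPM in Leptin-water and 361 ± 42.0 CPM in Saline-water libraries of set MT.

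The other carriers did not pass the threshold in that comparison, with Slc7a8 at a log2 fold change of 0.54 and Slc3a2 at 0.43 (adjusted p = 0.0554 each). For Slc7a7 the Leptin-antibiotic mean was 165 ± 25.4 CPM and the Saline-antibiotic mean 132 ± 14.4 CPM (0.33, adjusted p = 0.0875), and Slc3a1 139 ± 22.3 and 104 ± 19.1 CPM (0.42, adjusted p = 0.105). Slc6a19 averaged 679.8 ± 102 and 523 ± 105 CPM (0.39, adjusted p = 0.135), and Slc7a9 141 ± 14.6 and 119.7 ± 15.9 CPM (0.25, adjusted p = 0.146). Slc7a6 was the 1 basolateral member lower at an unadjusted p under 0.05 (−0.29, SE 0.14, adjusted p = 0.278). Positive values were found in 6 of 9 apical members (median 0.25) and 5 of 7 basolateral members (median 0.32), against a median of −0.02 over all genes. Enterocyte markers moved likewise, with 14 of 15 positive and a median of 0.34, and 0 members were called with their level as a covariate. The exocrine pancreas list had a median of −1.04 (3 of 24 positive, 0 called), 3 of the 6 libraries high in it being Saline-antibiotic libraries.

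The Slc6a6 call was also lost without the libraries high in pancreas genes (log2 fold change 0.36, adjusted p = 0.304), and without Leptin-antibiotic 2, Leptin-antibiotic 3, Saline-antibiotic 1 or Saline-antibiotic 5 in turn, where its log2 fold change was at least 0.36 and its adjusted p at most 0.0743. DESeq2 called 5 members, Slc3a1, Slc3a2, Slc6a6, Slc7a7 and Slc7a8. Leaving out Saline-water 10, Saline-water 13 or Saline-antibiotic 6 gave 4 called members each, leaving out Leptin-antibiotic 6 gave 3, and leaving out Leptin-water 12 or Leptin-antibiotic 5 gave 2. Calls over all genes, 84 as reported, moved with the setting as well, over the ranges given in the last section. These member counts are therefore not a result about the carriers alone.

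Whether the leptin effect itself differed between antibiotic and water was tested as an interaction in set MT, and 0 of the 54 members were called by edgeR, DESeq2 or limma voom. Across all 16340 genes edgeR called 0 (0%). At an unadjusted p under 0.05, 3 members stood out: Slc6a6 at 0.36 on the log2 scale (SE 0.11, p = 0.00222), Slc3a2 at 0.31 (SE 0.15, p = 0.0476) and Slc7a6 at −0.41 (SE 0.20, p = 0.0448). The adjusted p was 0.772 for each. The rise of Slc6a6 with leptin on antibiotic is therefore not shown to differ from its leptin effect on water.

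**Figure D3:**
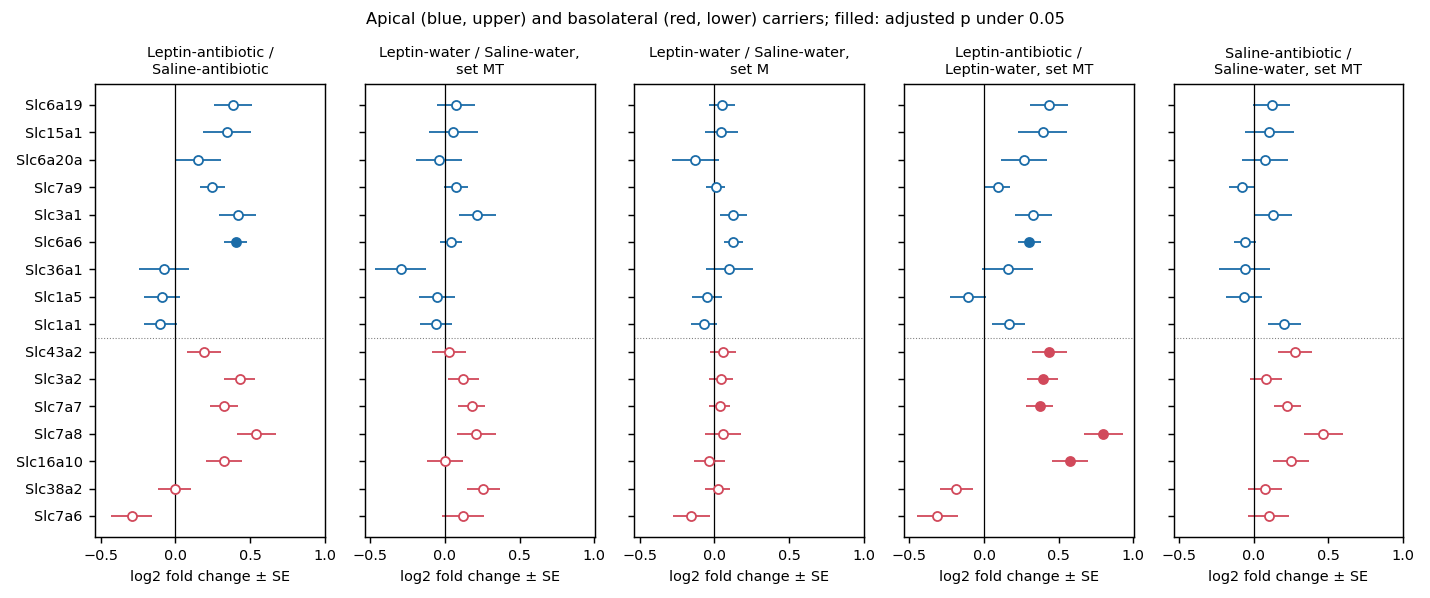
log2 fold change ± SE of the 9 apical (blue) and 7 basolateral (red) carriers in 5 comparisons, with filled points for an adjusted p under 0.05. Filled points appear in the Leptin-antibiotic comparisons alone, with 6 against Leptin-water and 1 against Saline-antibiotic libraries; these comparisons share the Leptin-antibiotic libraries.

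Antibiotic without leptin gave no called member: 0 of 54 between Saline-antibiotic and Saline-water libraries of set MT by edgeR, with 6 higher and 1 lower at an unadjusted p under 0.05, and 0.196% of all genes called (0.116% higher, 0.0796% lower). The lowest p belonged to Slc38a7, which encodes SNAT7, the carrier that exports glutamine from lysosomes. It had 13.8, 16.0 and 18.1 CPM in Saline-antibiotic libraries, against 17.9, 20.8 and 24.4 CPM in Saline-water libraries (log2 fold change −0.37, SE 0.084, adjusted p = 0.0592). All but 1 of the Saline-antibiotic values were lower than any Saline-water value. The result lay just outside the threshold, and DESeq2, limma voom and both other scalings called it. It was also called without Saline-water 9, Saline-water 14, Saline-antibiotic 6 or Leptin-antibiotic 1.

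All 7 basolateral members had a positive log2 fold change in Saline-antibiotic libraries, with a median of 0.23 against 0.01 over all genes. Slc7a8 averaged 196 ± 30.8 CPM in Saline-antibiotic and 143 ± 19.1 CPM in Saline-water libraries (log2 fold change 0.47, SE 0.13, adjusted p = 0.125). Slc43a2 averaged 478 ± 92.2 and 398 ± 45.3 CPM, Slc7a7 132 ± 14.4 and 114 ± 8.64 CPM, and Slc16a10 198 ± 33.2 and 168 ± 22.8 CPM (SD, n = 6 each), with log2 fold changes of 0.23 to 0.28 and adjusted p of 0.321 to 0.395. The apical median was 0.08. The exocrine pancreas list had a median of 3.05 (23 of 24 positive, 0 called), and without the libraries high in it 0 members were called. Positive values were also found in 13 of 15 mature enterocyte markers (median 0.11), 11 of 12 smooth muscle genes (0.14), 9 of 9 stomach and Brunner gland genes (1.10) and 5 of 5 hepatocyte genes (1.80), and in 0 of 12 immune genes (−0.30), with 0 called in each of these lists. Summed CPM of the hepatocyte list was 87.7 in Saline-antibiotic 2 and 7.97 to 14.1 in the other Saline-antibiotic libraries. Saline-water libraries of set MT had 6.67 to 14.1, so Saline-antibiotic 2 alone lay above them. Slc15a1 averaged 308 ± 72.0 CPM in Saline-antibiotic and 289 ± 73.4 CPM in Saline-water libraries. The comparison with leptin and the one without share no libraries, and the difference between their effects is the interaction given above.

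On water, leptin changed 1 of the 54 members, which was higher, in a fit of 27 libraries that included set. Of the 16329 genes tested 0.312% were called, 0.276% higher and 0.0367% lower. This was Slc6a18, which encodes B0AT3, a carrier of neutral amino acids known from the kidney. Its level was low, at 1.27, 1.82 and 2.33 CPM (lowest, median, highest) in Leptin-water libraries of set MT, against 0.246, 0.574 and 1.58 CPM in Saline-water libraries of set MT. In set M it had 1.22, 2.32 and 5.32 CPM in Leptin-water libraries, against 0.299, 0.864 and 1.24 CPM in Saline-water libraries. Of the 13 Leptin-water libraries 9 were above all 14 Saline-water libraries, and the log2 fold change over both sets was 1.59 (SE 0.24, adjusted p = 0.00679).

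Within set M the log2 fold change of Slc6a18 was 1.74 (SE 0.32, adjusted p = 0.0473, 6 of 7 libraries above all Saline-water libraries of the set). Of all genes 0.0856% were called there, 0.0611% higher and 0.0245% lower. Within set MT it was 1.38 (SE 0.36, unadjusted p = 0.000721, adjusted p = 0.543, 4 of 6 above). The difference between the sets was −0.35 (95% interval −1.33 to 0.62). On antibiotic, Slc6a18 had 0.733, 0.915 and 2.81 CPM in Leptin-antibiotic libraries, against 0.315, 0.390 and 0.811 CPM in Saline-antibiotic libraries (log2 fold change 1.46, SE 0.37, adjusted p = 0.0624, 5 of 6 above). The call over both sets held without each of the 27 libraries in turn, with a highest adjusted p of 0.0208, while the call within set M was lost without 20 of them, up to an adjusted p of 0.124. For set MT alone edgeR, DESeq2 and limma voom each called 0 members, with 2 higher and 1 lower at an unadjusted p under 0.05 by edgeR. Markers of other tissue differed in sign with leptin in set M, with 0 called in each list named here. The exocrine pancreas list had a median log2 fold change of 2.30 (18 of 23 positive), 12 of 12 smooth muscle genes were positive (0.36) and 9 of 10 enteric neuron and glia genes (0.50). None of the 6 hepatocyte genes (−0.95), 9 stomach and Brunner gland genes (−0.66) or 7 Paneth cell genes (−0.64) was positive. Without the libraries high in pancreas genes Slc6a18 was called over both sets and in set M. With the hepatocyte level as a covariate it was called over both sets (1.59) and not in set M (1.78, adjusted p = 0.160).

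Slc6a18 lies on chromosome 13 at 73661752 to 73678023 on the minus strand, 1721 bases beyond the end of Slc6a19 (73679745 to 73704865, minus strand), one of the most abundant members. Its libraries held 10 to 259 counts. Those counts equalled 0.191% ± 0.0998 of the Slc6a19 counts in Leptin-antibiotic libraries, against 0.0910% ± 0.0314 in Saline-antibiotic ones, 0.367% ± 0.0958 in Leptin-water and 0.146% ± 0.0892 in Saline-water libraries of set MT (SD, n = 6 each), and 0.498% ± 0.249 in Leptin-water (n = 7) and 0.154% ± 0.0555 in Saline-water libraries of set M (n = 8). The share was higher with leptin in each of the 3 pairs, while Slc6a19 itself averaged 583 ± 69.5 CPM in Leptin-water and 559 ± 67.2 CPM in Saline-water libraries of set M and was not called. A part of transcripts running past Slc6a19 in the Slc6a18 counts was not tested.

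**Figure D4:**
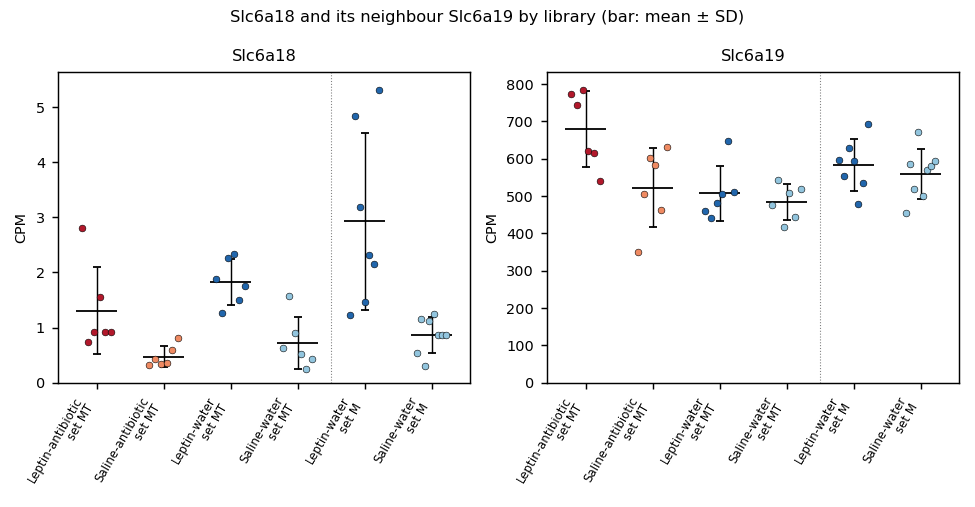
CPM of Slc6a18 and Slc6a19 in every library (points) with the mean ± SD of each group (bars); set MT stands left of the dotted line. Slc6a18 is higher in leptin than in saline libraries in each of the 3 pairs of groups, and its highest library, at 5.32 CPM, is a Leptin-water library of set M.

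The enterocyte carriers themselves gave no call with leptin on water. Over the 27 water libraries 0 of 9 apical and 0 of 7 basolateral members were called by edgeR (1 and 0 at an unadjusted p under 0.05), with median log2 fold changes of 0.04 and 0.08. DESeq2 and limma voom called Slc6a18 alone. Slc3a1 had the lowest p of the apical class (log2 fold change 0.17, SE 0.066, adjusted p = 0.300), and Slc38a2 that of the basolateral class (0.13, SE 0.064, adjusted p = 0.461). Slc15a1 averaged 299 ± 44.2 CPM in Leptin-water and 289 ± 73.4 CPM in Saline-water libraries of set MT, and 281 ± 29.1 and 271 ± 30.2 CPM in set M. Its log2 fold change of 0.05 had a 95% interval of −0.11 to 0.21.

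In Saline-water libraries, set MT differed from set M in 11 members, 2 higher and 9 lower, against 8.28% of 16356 genes higher and 8.97% lower. The larger differences were in carriers known from the liver. Slc38a3, which encodes the glutamine carrier SNAT3, had 0.0491, 0.194 and 0.214 CPM in set MT, against 2.88, 11.8 and 23.7 CPM in set M, a log2 difference of −6.32 (SE 0.56, adjusted p = 6.89e-09). The neutral amino acid carrier Slc38a4 had 1.84, 2.89 and 4.98 CPM in set MT and 5.06, 14.0 and 28.9 CPM in set M (−2.30, SE 0.32). Slc6a13, a GABA and taurine carrier, had 0.0491, 0.248 and 0.381 CPM in set MT and 0.561, 1.73 and 2.43 CPM in set M (−2.69, SE 0.41), and Slc7a2, a cationic amino acid carrier, 5.48, 6.89 and 10.0 CPM and 7.93, 18.2 and 39.4 CPM (−1.55, SE 0.26). Slc38a3, Slc38a4, Slc6a13 and Slc38a10 lay lower in set MT without overlap and Slc7a14 higher, against 2.08% and 1.77% of all genes.

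Hepatocyte genes moved with these members. Albumin was 67.7 to 634 CPM in the libraries of set M and at most 0.679 CPM in those of set MT, apart from Saline-antibiotic 2 at 41.1 CPM. All 6 measured genes of a list of 10 hepatocyte genes were lower in set MT (median log2 difference −6.29), and their summed CPM was 109 to 928 in set M and 6.67 to 17.3 in set MT save 87.7 in Saline-antibiotic 2. The 4 libraries of set M with the highest hepatocyte level were also the 4 highest for Slc38a3, Slc38a4 and Slc7a2, and 3 of them were among the 4 highest for Slc6a13 and for Slc1a2. Saline-antibiotic 2 was the highest library of set MT for Slc38a3 (2.21 CPM), Slc38a4 (6.59 CPM) and Slc6a13 (0.644 CPM). With the hepatocyte level as a covariate, which follows set closely, 1 member was called, Slc7a2, and its sign was turned round. The part of liver RNA in these values was not tested further.

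**Figure D5:**
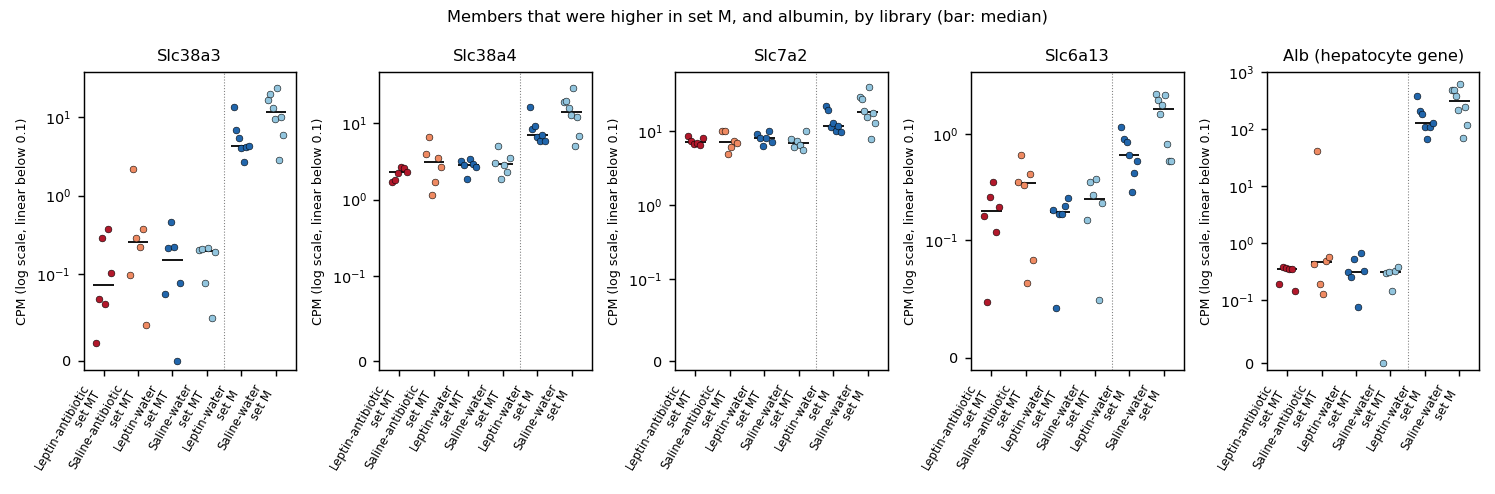
CPM in every library (points; log axis, linear below 0.1) of Slc38a3, Slc38a4, Slc7a2, Slc6a13 and the hepatocyte gene Alb, with group medians (bars); set MT stands left of the dotted line and set M right of it. The single set MT library at 41.1 CPM of Alb, Saline-antibiotic 2, is also the highest of its set for Slc38a3 at 2.21 CPM.

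The same liver-type carriers were lower with leptin in set M without passing the threshold. The log2 fold change was −1.12 for Slc38a3 (adjusted p = 0.227), −0.82 for Slc38a4 (0.240), −1.15 for Slc6a13 (0.194) and −0.61 for Slc7a2 (0.298), while the hepatocyte list had a median of −0.95. The glutamate carrier Slc1a2, known from glia and liver, with 7.81 ± 1.14 CPM in Leptin-water (n = 7) and 11.53 ± 2.03 CPM in Saline-water libraries (SD, n = 8), had −0.57 (adjusted p = 0.163) and was called by DESeq2. In Saline-water libraries it averaged 8.53 ± 2.43 CPM in set MT and 11.53 ± 2.03 CPM in set M (−0.44, adjusted p = 0.0469). The other members called between the sets were the betaine and GABA carrier Slc6a12 (−1.03), the proline carrier Slc6a7 (−0.35), Slc38a10 (−0.18), Slc7a6os (−0.18), the lysosomal carrier Slc7a14 (0.61) and Slc7a11 (0.43). Their adjusted p lay between 0.00296 and 0.0466.

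Among the apical and basolateral carriers 0 were called between the sets by edgeR, with 1 higher and 2 lower at an unadjusted p under 0.05. Slc43a2 was nearest, averaging 398 ± 45.3 CPM in set MT (n = 6) and 474 ± 44.1 CPM in set M (SD, n = 8), a log2 difference of −0.26 (adjusted p = 0.0522), and DESeq2 and limma voom called it. The count of 11 fell to 6 without Saline-water 7 or Saline-water 9 and to 7 without Saline-water 1, 2, 3 or 12. The leptin effect itself differed between the sets in 0 members (edgeR, DESeq2 and limma voom; 3 higher and 2 lower at an unadjusted p under 0.05) and in 0.0428% of all genes, 0.0367% higher and 0.00611% lower.

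Among members that serve many cell types, the large neutral amino acid exchanger Slc7a5 averaged 12.8 to 14.0 CPM over the 6 combinations of set and group, the cationic amino acid carrier Slc7a1 81.6 to 95.2 CPM, and Slc38a9, the lysosomal arginine sensor upstream of mTORC1, 18.3 to 20.0 CPM. Slc7a11 averaged 1.37 to 2.09 CPM and the glutamine carrier Slc38a5 1.18 to 1.74 CPM. None of these 5 was called by edgeR for leptin or for antibiotic, with adjusted p of 0.386 or more in the 3 comparisons with antibiotic. Slc6a8, the most abundant member, averaged 909 ± 122 CPM in Leptin-antibiotic and 675 ± 94.8 CPM in Leptin-water libraries (log2 fold change 0.44, SE 0.13, adjusted p = 0.0645), and Slc7a15 averaged 156 ± 23.2 and 116 ± 16.1 CPM (0.44, adjusted p = 0.0665). DESeq2 and limma voom called both, and Slc6a19 as well.

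Peptidases of the enterocyte, most of them at the brush border, supply the carriers with free amino acids and short peptides. Between Leptin-antibiotic and Leptin-water libraries 6 of 15 on the list were called higher and 0 lower, against 1.85% and 0.422% of all genes. All 15 were positive (median 0.52, against −0.01 over all genes), as were 15 of 15 mature enterocyte markers (median 0.35). A rise of the peptidases apart from enterocyte content was not tested. The 6 were Naaladl1 (log2 fold change 0.82), the aminopeptidase Xpnpep2 (0.74), Cndp2 (0.68), the dipeptidase Dpep1 (0.62), the proline dipeptidase Pepd (0.58) and the metalloprotease subunit Mep1a (0.52). Cndp2 and Pepd act on dipeptides in the cytosol and not at the brush border, which leaves 4 called brush border peptidases. Between Saline-antibiotic and Saline-water libraries 0 of 15 were called by edgeR, with 8 higher and 0 lower at an unadjusted p under 0.05 (median 0.27), and with leptin on antibiotic 0 of 15, with 10 higher (median 0.36). With leptin on water 0 of 15 were called and 0 had an unadjusted p under 0.05.

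Of 14 genes of enterocyte amino acid metabolism, Glud1, the glutamate dehydrogenase, and the aspartate aminotransferase Got1 rose between Leptin-antibiotic and Leptin-water libraries (log2 fold changes 0.63 and 0.48). In that comparison 2.28% of all genes were called. Glud1 also rose between Saline-antibiotic and Saline-water libraries (0.55, SE 0.11, adjusted p = 0.0388), where 0.196% of all genes were called. Of 18 genes of amino acid sensing by mTORC1, Castor2 (0.40) and Rragd (0.25) rose between Leptin-antibiotic and Leptin-water libraries. Fnip1 rose with leptin on water (0.28, adjusted p = 0.0493), where 0.312% of all genes were called. Of 6 measured partners of the carriers, the scaffold gene Slc9a3r1 rose between Leptin-antibiotic and Leptin-water libraries (0.51, adjusted p = 0.0359). Of 20 genes of the Atf4-driven amino acid response, 0 were called in this comparison by edgeR (1 higher and 2 lower at an unadjusted p under 0.05), 0 with antibiotic in saline libraries (1 and 2), 0 with leptin on antibiotic (3 and 1) and 0 with leptin on water (1 and 4).

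Genes with a residual pattern much like that of Slc15a1 included microvillus genes. After subtraction of the means of set and group, over 39 libraries and 9916 genes with a mean of at least 3 log2 CPM, Pearson's r with Slc15a1 was 0.90 for the microvillus gene Vil1, 0.89 for Cdhr5 and Myo1a, and 0.88 for Smim24. Among the members it was 0.84 for Slc3a2, 0.80 for Slc3a1, 0.78 for Slc7a7 and Slc6a19, and 0.70 for Slc43a2 and Slc7a8. Among the apical and basolateral carriers r was negative for 4, with −0.67 for Slc1a5, −0.65 for Slc38a2, −0.63 for Slc7a6 and −0.21 for Slc1a1. These are descriptions over libraries that differ in depth, ribosomal RNA content and tissue makeup, and the part of these differences in r was not tested.

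Some members overlap another annotated gene on the opposite strand, and for the counting no strand setting was given. The overlap covers 26.5% of the exon length of Slc3a1 (with Prepl), 31.9% of Slc1a1, 14.9% of Slc6a20a, 9.18% of Slc43a2, 7.00% of Slc7a7 (with Oxa1l) and 1.38% of Slc6a6. Reads from both genes could enter these counts to that extent. Slc7a8, Slc16a10, Slc3a2, Slc15a1, Slc6a19 and Slc6a18 have no such overlap.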

How the data were processed

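Whole duodenum was profiled by stranded, ribosome-depleted total RNA sequencing. The deposited values are read counts per gene, which the authors made with HISAT2 and featureCounts on mm10, per the submitters' processing notes; the table was deposited as filtered. For strand setting and annotation, the sources used here state nothing. Counts were tested with edgeR 4.0.16 in R 4.3.3 (filterByExpr, TMM scaling, quasi-likelihood F test, Benjamini-Hochberg adjustment over all genes tested, threshold 0.05). These steps were first run as a whole on simulated data for leptin on water and for leptin on antibiotic. The other comparisons and the alternatives were not simulated. Leptin on water was fitted over 27 libraries in a model that included set, the sets apart with set and group combined, and the antibiotic comparisons over the 24 libraries of set MT. SEs were taken from the log2 fold change and its F value. Alternatives were DESeq2 1.42.0, limma 3.58.1 voom, other scalings, no filter, marker covariates, a replicate block and leaving out libraries. Named genes were all apical and basolateral carriers, every called member, and those nearest the threshold. The members and lists were chosen with earlier results of these data known; the hepatocyte list and its covariate were added after seeing the data. Gene positions and exon lengths came from GENCODE vM21 (GRCm38, the assembly also named mm10). A fold change carries the spread between libraries, and depths of 30207536 to 67870777 counts limit precision mainly for members under 1 RPKM. Of the 5 genes most like Slc15a1 in pattern, 1 is not reported here.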

Additional observations from a re-analysis of the deposited data

Results flagged for a closer look

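In 12 of 240 groups of 6 to 8 libraries, 1 library's log2 CPM stood apart from the rest of its group by Dixon's criterion. Chance meets that criterion in about 1 of 20 groups. The Leptin-water library 7 of set M gave 5 of the 12. It had 125 CPM of the proton-coupled carrier Slc36a1 (64.5 to 78.8 in the other libraries of its group), 0.117 CPM of Slc38a5 (0.726 to 2.39), 1.37 CPM of Slc6a12 (2.79 to 4.18), 6.78 CPM of Slc7a6 (10.7 to 14.4) and 13.5 CPM of Slc7a6os (16.3 to 18.1).

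The Leptin-water library 10 of set MT had 57.1 CPM of Slc36a1 (64.2 to 68.1 in the others) and 8.63 CPM of Slc7a5 (12.6 to 15.1). Leptin-water library 12 of set MT had 148 CPM of Slc7a15 (104 to 114), and Leptin-water library 9 had 0.0424 CPM of Slc6a13 (0.177 to 0.252). Leptin-antibiotic library 3 had 1.51 CPM of Slc7a14 (2.68 to 3.36). For Slc6a12, Saline-water library 9 of set MT had 0.379 CPM (2.05 to 2.92) and Saline-water library 6 of set M had 2.08 CPM (3.70 to 5.69).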

How the results depend on the processing

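There were 48 planned settings, 39 of them leaving out 1 library, and 1 added after seeing the data, the hepatocyte level as a covariate. A result was recomputed without each library of its own fit, 27 for the fits of both sets and 24 for those of set MT. Called members numbered 7 in antibiotic with leptin, and 3 with upper quartile scaling, 2 without the libraries high in pancreas genes, 0 with the enterocyte covariate and 1 to 10 leaving out 1 library. In leptin on antibiotic (1 member) they numbered 5 with DESeq2, 0 without the libraries high in pancreas genes, 0 with the enterocyte covariate and 0 to 4 leaving out 1 library. In antibiotic with saline (0) the count was 1 with DESeq2-style size factors, upper quartile scaling, no filter, DESeq2, limma voom and the enterocyte covariate, and 0 to 1 leaving out 1 library. In leptin on water within set M (1) it was 2 with DESeq2, without the libraries high in pancreas genes and with the pancreas covariate, 0 with the hepatocyte covariate and 0 to 1 leaving out 1 library. Between the sets in saline (11) it was 1 with the hepatocyte covariate and 6 to 12 leaving out 1 library. The causes were not tested. With the hepatocyte covariate the log2 difference between the sets turned round for Slc1a2 (0.94), Slc38a3 (0.36), Slc38a4 (2.57), Slc6a12 (1.11), Slc6a13 (1.97), Slc7a2 (2.64) and Slc7a11 (−0.34).

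Over all genes the calls ranged from 108 to 1394 (372 as reported) in antibiotic with leptin, 0 to 443 (84) in leptin on antibiotic, 15 to 218 (32) in antibiotic with saline and 0 to 173 (51) in leptin on water. Leaving out 1 library they ranged from 73 to 650, 9 to 183, 14 to 100 and 10 to 125 in these comparisons. Of 18 library pairs that share a replicate number, 5 had deviations correlated above 0.1 (range −0.388 to 0.635). In 2 of the 18 the library of the same number was the best match. The samples were therefore not treated as paired. Deviations from the means of small groups cannot exclude pairing. With the number as a replicate block, 0 members were called in leptin on water, 0 within set M and 0 in leptin on antibiotic. No paired analysis was possible for the antibiotic comparisons or between the sets because too few replicate numbers are shared. Members under 1 RPKM, Slc6a18 among them, rest on few counts.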
